A study of Mus musculus with 4 samples.

Results

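The cell polarity genes described here are 10 genes chosen by name out of 27998 genes in the count tables. They are *Pard3*, *Pard6g*, *Prkci* and *Prkcz* of the Par complex, the kinases *Mark2* and *Mark3*, *Scrib*, *Dlg1* and *Llgl1* of the Scribble complex, and *Vangl2* of planar cell polarity. Their transcripts were counted by scRNA-seq in ITGA7+/VCAM+/Lin- cells sorted from lower hindlimb muscle, in 1 library per strain made from 2 pooled mice. The groups were B10 (C57/Bl10ScsSn, 15 weeks old), *mdx* (C57BL/10ScSn-Dmdmdx, 11 weeks), DBA (DBA/2, 13 weeks) and D2-*mdx* (D2.B10-Dmdmdx, 14 weeks). The *mdx* and D2-*mdx* mice carry a natural null mutation of the dystrophin gene *Dmd* in every cell, so the deficiency is not limited to satellite cells. The labels name no transgene, injury or treatment. Strain, age and library cannot be told apart in this design.

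Cell polarity is set up by protein modules that exclude each other from parts of the cell cortex. The Par complex joins the scaffolds PARD3 and PARD6 to an atypical protein kinase C, which is PKCι (*Prkci*) or PKCζ (*Prkcz*). MARK kinases and the Scribble module act against the Par complex at the opposite cortex. In satellite cells dystrophin binds MARK2, which keeps PARD3 on the other side of a dividing cell, and polarity of this kind accompanies asymmetric division into a stem cell and a committed progenitor. VANGL2 acts downstream of WNT7A and its receptor FZD7 in the planar, symmetric division of these cells.

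Cell types were assigned by clustering, and the myogenic clusters gave 4419 cells from B10, 4816 from *mdx*, 2700 from DBA and 4177 from D2-*mdx*, with 30139920 to 40316973 UMIs (unique molecular identifiers, each counting 1 captured transcript) per library. Each of the 8 satellite cell markers, which also served to name the clusters, had UMIs in these cells in all libraries. So did every listed pericyte, glial, Schwann, endothelial and fibroblast or tenocyte marker, so detection alone does not separate these cell types. Myogenic cells were then gated as dividing (a UMI in at least 3 of 10 mitosis genes), Myog-positive (at least 2 UMIs of the differentiation factor *Myog*) or Pax7-positive (at least 1 UMI of the satellite cell factor *Pax7*). Pax7-positive cells were most numerous, with 4371, 4042, 2630 and 3358 cells in B10, *mdx*, DBA and D2-*mdx*. Dividing cells numbered 6, 127, 21 and 296 in the same order, and Myog-positive cells 10, 212, 24 and 201. Values for dividing and Myog-positive B10 and DBA cells therefore rest on few cells. Levels are given as CPM, the UMIs of a gene per 1000000 UMIs of all genes in the same cells. *Dmd* itself was at 324 CPM in the B10 library and 120 in *mdx*, and at 288 and 94.0 in DBA and D2-*mdx*. Pairs of libraries shared 5 to 16 cell barcodes, at most 0.236% of the smaller library.

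All 10 polarity genes were detected in the myogenic cells of all 4 libraries, and 8 of them averaged at least 5 CPM. Each comparison of strains sets 1 library against 1 and was given no test. It is a log2 ratio of summed CPM with an exact 95% binomial interval that covers counting error only. A gene averaging at least 5 CPM was counted as lower or higher when the ratio passed 1.5-fold. In *mdx* over B10, 2 of the 8 genes were lower (*Prkci* and *Llgl1*) and 0 were higher, where 13.9% of all 9764 genes compared were lower and 10.4% higher. In D2-*mdx* over DBA, 1 of 8 was lower (*Prkci*) and 0 were higher, where the background was 17.6% lower and 12.5% higher. The median log2 ratio of the 8 genes was -0.05 in *mdx* over B10, equal to the median of all genes. It was -0.16 in D2-*mdx* over DBA, where the median of all genes was -0.09.

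**Figure D1:**
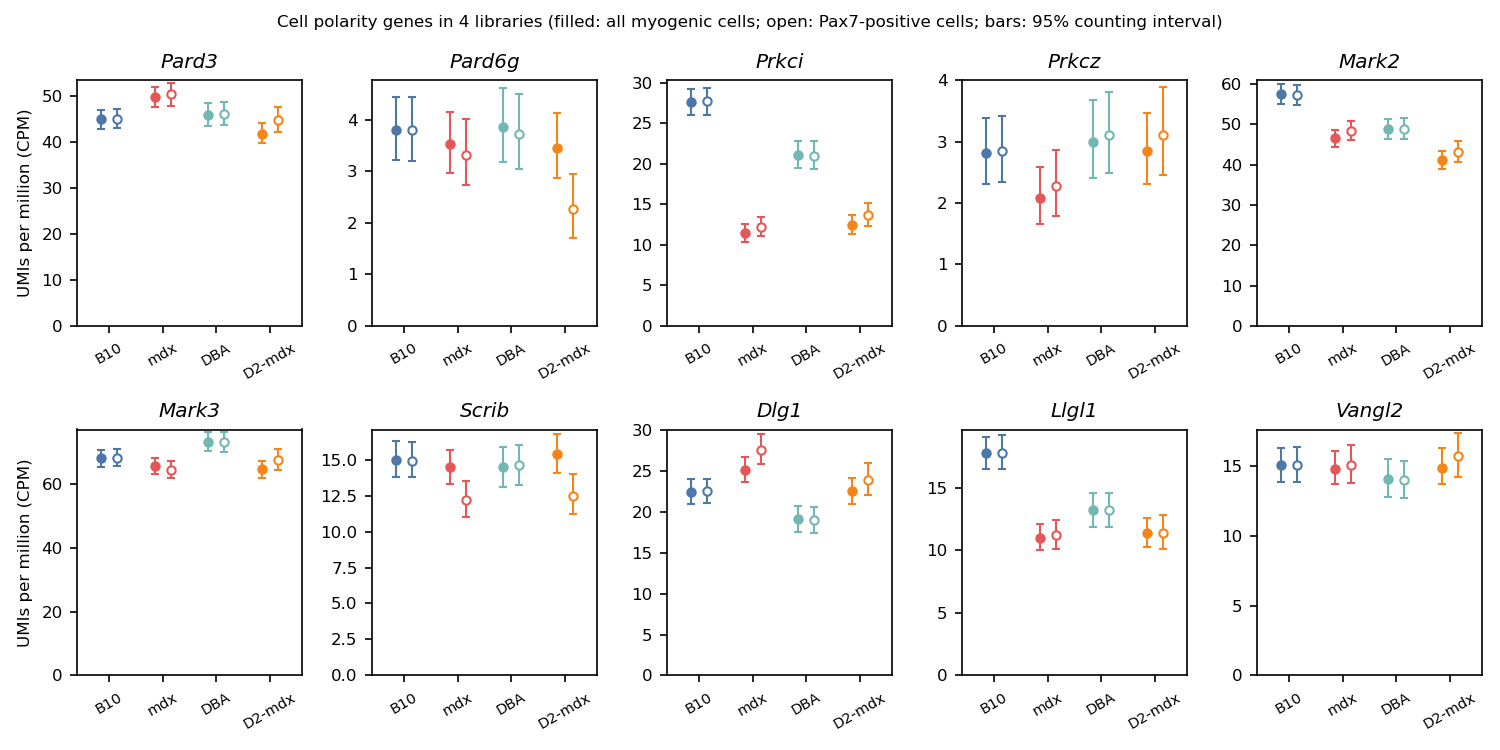
CPM of the 10 genes (vertical axis, linear, from 0) in the B10, *mdx*, DBA and D2-*mdx* libraries, over all myogenic cells (filled points) and Pax7-positive cells (open points), with 95% Poisson intervals of the counts. *Prkci* separates the dystrophic libraries (11.5 and 12.4 CPM) from the healthy ones (27.6 and 21.1 CPM), whereas *Scrib* and *Vangl2* sit at about the same level in all 4 over all myogenic cells.

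*Prkci* encodes PKCι, the catalytic subunit of the Par complex, and was furthest from its control among the 8 genes in both dystrophic strains. Over all myogenic cells it was at 27.6 CPM in B10 (1102 UMIs) versus 11.5 in *mdx* (462), and 21.1 in DBA (636) versus 12.4 in D2-*mdx* (433). Both dystrophic libraries lay below both healthy ones, with no overlap of their counting intervals. The log2 ratio was -1.27 (interval -1.43 to -1.11) in *mdx* over B10, which is 41.5% of the B10 level, and -0.76 (-0.94 to -0.59) in D2-*mdx* over DBA, which is 58.9% of the DBA level. *Prkci* was the only one of the 8 genes past 1.5-fold in the same direction on both backgrounds, where 10.4% of all genes were lower in both and 7.74% higher in both. Fewer cells that transcribe a gene and fewer transcripts in each cell cannot be told apart in these sums.

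The sort did not remove the differences in cell state between strains, so the ratios were also taken within Pax7-positive cells. This gate did not make the strains alike in state. On the B10 background the log2 ratio within it was -0.84 for *Pax7* and 3.27 for *Myog*, and on the DBA background -0.32 and 4.02. *Myog* was low there, at most 8.94 CPM (D2-*mdx*), and the *Myf5* ratios were -0.03 and -0.10. The part of these differences in the polarity gene ratios was not tested. Pax7-positive cells held most of the UMIs of all myogenic cells, so the 2 sets of ratios are not independent. For *Prkci* they held 1089 of 1102 UMIs in B10, 398 of 462 in *mdx*, 611 of 636 in DBA and 338 of 433 in D2-*mdx*. Within Pax7-positive cells 2 of 8 genes were lower in *mdx* over B10 and 0 higher, beside 12.9% and 9.12% of the 9716 genes compared. In D2-*mdx* over DBA 1 was lower and 0 higher, beside 13.8% and 9.49%. *Prkci* was at 27.7 CPM in B10 versus 12.2 in *mdx*, and 21.0 in DBA versus 13.7 in D2-*mdx* within these cells, so the order of the libraries was that of all myogenic cells. The log2 ratios were -1.18 (-1.34 to -1.01) and -0.62 (-0.82 to -0.43). The second value lies close to the 1.5-fold limit and was within it under several other settings.

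The 16 immediate-early genes, which respond to dissociation, also differed between libraries, with summed levels of 45464 CPM in B10 versus 35344 in *mdx*, and 37266 in DBA versus 34612 in D2-*mdx*. Within Pax7-positive cells the sums were 45737 in B10 versus 39555 in *mdx*, and 37943 in DBA versus 43574 in D2-*mdx*, so the order on the DBA background was the other way there. In Pax7-positive cells below the pooled median immediate-early share (4.30% of UMIs), a split chosen after seeing the data, the *Prkci* log2 ratio was -1.25 in *mdx* over B10 and -0.83 in D2-*mdx* over DBA. In cells at or above that median it was -1.10 and -0.42, so the ratio stayed below 0 in each part and the D2-*mdx* value fell within 1.5-fold in the cells with more immediate-early RNA. Marker lists of other sorted cell types also moved with the strains in the myogenic cells. The 6 pericyte markers summed to 356 and 292 CPM in B10 and DBA but 235 and 220 in *mdx* and D2-*mdx*, and the 5 vascular smooth muscle markers to 412 and 511 but 579 and 757. The pericyte markers include *Notch3*, which the paper ties to satellite cell quiescence, so their sum does not read pericyte RNA alone. Within Pax7-positive cells the vascular smooth muscle markers summed to 400 CPM in B10 versus 372 in *mdx*, the other way round, and 455 in DBA versus 609 in D2-*mdx*. The 6 white blood cell markers summed to 1.20 CPM in B10, where *Ptprc* was at 0, and 6.97 in DBA, but 19.5 in *mdx* and 91.3 in D2-*mdx*. The 6 fibroblast or tenocyte markers ranged from 3.94 CPM in B10 to 67.4 in D2-*mdx*. The part of these lists in the ratios was not tested.

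Pericyte-like cells, the largest group of other cells in each library, also had less *Prkci* in the dystrophic strains. *Prkci* was at 24.8 CPM in B10 (26 UMIs) versus 11.1 in *mdx* (56), and 20.7 in DBA (117) versus 10.0 in D2-*mdx* (77). The log2 ratios were -1.17 (-1.86 to -0.44) and -1.05 (-1.48 to -0.62). Among all genes in pericyte-like cells 18.2% were lower past 1.5-fold in *mdx* over B10 and 13.7% in D2-*mdx* over DBA. The lower *Prkci* level was thus measured outside the myogenic cells of the same libraries as well. In glial-like cells the *Prkci* log2 ratios were -0.72 (-2.22 to 1.24) and -1.48 (-2.77 to -0.11), on 4 B10 and 9 DBA UMIs. Schwann-like, endothelial-like and white blood cell-like cells also had less in both dystrophic strains, on 1 to 8 UMIs in each control. Vascular smooth muscle-like and fibroblast or tenocyte-like cells had less in *mdx* but more in D2-*mdx*, where DBA had 0 and 1 UMIs.

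*Prkci* (ENSMUSG00000037643) lies on the plus strand of chromosome 3, from 30995747 to 31052959 in GRCm38, the assembly known as mm10. The second gene past 1.5-fold in *mdx*, *Llgl1* (ENSMUSG00000020536), lies on the plus strand of chromosome 11, from 60699723 to 60714186, where *Flii* overlaps it on the minus strand. The promoters of both genes are shown because these were the members past 1.5-fold lower in *mdx*, and that of *Mark2* because its ratio had the same sign in both dystrophic strains. The ratios of *Pard6g*, *Prkcz*, *Mark3* and *Dlg1* also had the same sign in both, and no promoter of theirs is shown. Each promoter shown is 300 bases (250 before the start of transcription and 50 after it) from RefSeq on GRCm38.p6, written 5′ to 3′ on the gene's strand. Capitals mark CANNTG, the E-box core that myogenic regulatory factors bind, searched on both strands (it reads the same on either).
*Prkci*, chr3:30995521-30995820: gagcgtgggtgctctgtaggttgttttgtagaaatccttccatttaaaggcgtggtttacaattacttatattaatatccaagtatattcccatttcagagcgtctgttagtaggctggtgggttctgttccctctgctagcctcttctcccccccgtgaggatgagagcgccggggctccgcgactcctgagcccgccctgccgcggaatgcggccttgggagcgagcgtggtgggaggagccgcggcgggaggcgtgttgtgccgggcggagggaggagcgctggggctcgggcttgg
*Llgl1*, chr11:60699450-60699749: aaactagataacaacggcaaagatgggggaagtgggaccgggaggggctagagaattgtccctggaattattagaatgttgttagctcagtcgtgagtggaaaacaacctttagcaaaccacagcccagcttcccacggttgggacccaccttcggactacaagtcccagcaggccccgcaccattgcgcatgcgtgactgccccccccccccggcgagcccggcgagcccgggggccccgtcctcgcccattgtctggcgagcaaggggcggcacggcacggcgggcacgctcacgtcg
*Mark2*, chr19:7341811-7342110: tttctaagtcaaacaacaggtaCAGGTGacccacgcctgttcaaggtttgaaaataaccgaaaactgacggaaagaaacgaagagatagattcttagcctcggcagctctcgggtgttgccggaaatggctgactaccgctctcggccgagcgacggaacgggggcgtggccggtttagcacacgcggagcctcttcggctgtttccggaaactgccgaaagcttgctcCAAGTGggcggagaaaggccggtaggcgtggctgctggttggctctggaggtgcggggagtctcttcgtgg
The *Prkci* and *Llgl1* windows held 0 CANNTG matches and the *Mark2* window 2. A second *Mark2* promoter in the same table, at chr19:7295398-7295697, held 3 and is not shown. Of all 32851 promoters listed, 72.3% held at least 1. GC content was 59.7% for *Prkci*, 62.7% for *Llgl1* and 57.3% for *Mark2*, beside a median of 52.7% over all promoters. A match or its absence in these letters says nothing of binding. Of the 10 genes, 8 had an entry that could be read here.

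The other 3 Par complex members stayed within 1.5-fold of control in both dystrophic strains over all myogenic cells. *Pard3*, the scaffold that recruits the kinase, was at 45.0 CPM in B10 versus 49.9 in *mdx*, and 46.0 in DBA versus 41.9 in D2-*mdx*. It was 111% of control in *mdx* and 91.1% in D2-*mdx*, with log2 ratios of 0.15 (0.06 to 0.24) and -0.13 (-0.24 to -0.03). *Prkcz*, the other atypical kinase, was at 2.81, 2.08, 2.99 and 2.84 CPM in B10, *mdx*, DBA and D2-*mdx* (84 to 112 UMIs), so no increase of *Prkcz* stood beside the lower *Prkci*. The *Prkcz* log2 ratios were -0.43 (-0.86 to -0.01) in *mdx* over B10 and -0.07 (-0.50 to 0.36) in D2-*mdx* over DBA. *Pard6g*, a scaffold that binds the kinase, was at 3.79, 3.52, 3.85 and 3.44 CPM. Within Pax7-positive cells *Pard6g* was at 2.27 CPM in D2-*mdx* (56 UMIs) against 3.72 in DBA (108), a log2 ratio of -0.71 (-1.21 to -0.24) that stands below the 5 CPM required for a call.

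MARK2 is the polarity kinase that dystrophin binds in satellite cells. *Mark2* was at 57.5 CPM in B10 versus 46.5 in *mdx*, and 48.7 in DBA versus 41.1 in D2-*mdx*. It was lower than control in both dystrophic strains by less than 1.5-fold, with log2 ratios of -0.31 (-0.40 to -0.22) and -0.25 (-0.35 to -0.14). DBA was below B10 by a like amount, with a log2 ratio of -0.24 (-0.33 to -0.14). *Mark3*, a related kinase, was at 67.9, 65.5, 73.1 and 64.5 CPM in B10, *mdx*, DBA and D2-*mdx*, and its log2 ratios were -0.05 (-0.13 to 0.03) and -0.18 (-0.27 to -0.10).

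The 3 Scribble complex genes each behaved differently. *Llgl1*, whose product is a substrate of atypical PKC, was at 17.8 CPM in B10 (708 UMIs) versus 11.0 in *mdx* (444), and 13.2 in DBA (398) versus 11.4 in D2-*mdx* (397). B10 stood above the other 3 libraries. The log2 ratio was -0.69 (-0.86 to -0.52) in *mdx* over B10 and -0.21 (-0.42 to -0.01) in D2-*mdx* over DBA, and it was -0.66 and -0.22 in Pax7-positive cells. In the Pax7-positive cells below the median immediate-early share it was -0.53 in *mdx* over B10, within 1.5-fold, and in the cells above it -0.89.

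*Dlg1*, a membrane-associated scaffold, was the member that was higher in both dystrophic strains. It was at 22.5 CPM in B10 versus 25.2 in *mdx*, and 19.1 in DBA versus 22.6 in D2-*mdx*, with log2 ratios of 0.17 (0.04 to 0.30) and 0.24 (0.08 to 0.40). In Pax7-positive cells the ratios were 0.29 (0.16 to 0.43) and 0.33 (0.16 to 0.50), both within 1.5-fold. In the Pax7-positive cells below the median immediate-early share they were 0.37 (0.19 to 0.56) and 0.49 (0.26 to 0.71). At or above it they were 0.09 (-0.13 to 0.31) and 0.15 (-0.11 to 0.41), where both intervals included 0. *Scrib*, the scaffold that names the complex, was at 15.0, 14.5, 14.5 and 15.4 CPM over all myogenic cells of B10, *mdx*, DBA and D2-*mdx*. Within Pax7-positive cells it was lower in both dystrophic strains, at 12.2 CPM in *mdx* against 14.9 in B10 and 12.5 in D2-*mdx* against 14.6 in DBA. Those log2 ratios were -0.29 (-0.48 to -0.10) and -0.22 (-0.43 to -0.00). *Vangl2*, the planar polarity membrane protein, was at 15.1, 14.8, 14.1 and 14.9 CPM, with log2 ratios of -0.02 (-0.19 to 0.14) and 0.09 (-0.10 to 0.27).

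**Figure D2:**
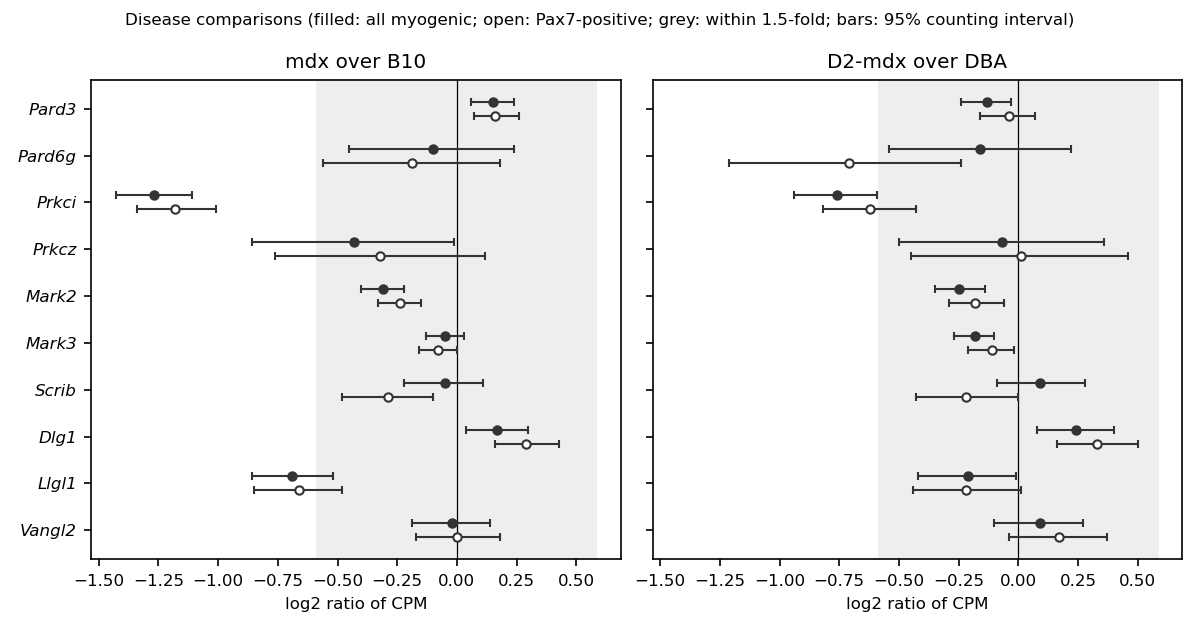
Log2 ratio of CPM (horizontal axis) for the 10 genes in *mdx* over B10 and in D2-*mdx* over DBA, over all myogenic cells (filled) and Pax7-positive cells (open), with 95% counting intervals. The grey band spans 1.5-fold either way. *Prkci* lies left of the band in both comparisons and *Llgl1* only in *mdx* over B10, while *Pard6g*, whose open point also lies left of it in D2-*mdx* over DBA, averaged under 5 CPM.

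Comparing the healthy backgrounds and the dystrophic strains with each other gave 0 of the 8 genes past 1.5-fold in either direction. In DBA over B10 the background was 5.44% lower and 4.66% higher, and in D2-*mdx* over *mdx* it was 4.86% lower and 4.71% higher. These comparisons share libraries with the disease comparisons and are not independent of them. In DBA over B10, *Llgl1* had a log2 ratio of -0.43 (-0.61 to -0.25) and *Prkci* -0.39 (-0.53 to -0.25). In D2-*mdx* over *mdx* the same genes had ratios of 0.05 (-0.15 to 0.25) and 0.12 (-0.08 to 0.31), so their levels in the dystrophic libraries did not differ beyond counting error.

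The 3 gates share no gene with the 10 polarity genes, and a state difference can be tested because each library holds every state. UMIs were summed per library and state and tested with edgeR's quasi-likelihood test with library as a block, with Benjamini-Hochberg adjustment over 11630 genes at a threshold of 0.05. The replicates are the 4 libraries, which are different strains of pooled mice. The p-values weigh the average state difference against the variation of these sums left after the library and state terms. That variation is shared by both state comparisons and estimated in part from other genes. Of the 10 genes 9 passed the filter on low counts (all but *Prkcz*). In Myog-positive over Pax7-positive cells 1 of 9 was higher and 1 lower, beside 16.0% and 17.7% of all genes. In dividing over Pax7-positive cells 1 was higher and 1 lower, beside 19.2% and 19.8%. Both comparisons use the same Pax7-positive sums.

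*Scrib* rose in Myog-positive cells. It went from 14.9 CPM in Pax7-positive to 20.3 in Myog-positive cells of B10, from 12.2 to 41.6 in *mdx*, from 14.6 to 7.11 in DBA and from 12.5 to 38.9 in D2-*mdx*. Both dystrophic libraries were above their Pax7-positive cells beyond counting error, whereas the B10 and DBA Myog-positive values rest on 4 and 3 UMIs. The fitted log2 fold change was 1.36 (SE 0.284, edgeR adjusted p = 0.00138), with a rise in 3 of 4 libraries. The DESeq2 Wald test gave an adjusted p of 0.0509. Without *mdx* the edgeR adjusted p was 0.166 and without D2-*mdx* it was 0.101, so the call rests on the dystrophic libraries, and it was also lost when cells were thinned to 3000 UMIs (adjusted p = 0.170). *Scrib* (ENSMUSG00000022568) lies on the minus strand of chromosome 15, from 76047158 to 76069784 in GRCm38.

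*Prkci* fell in Myog-positive cells near the threshold. In Myog-positive cells it was at 20.3 CPM in B10 versus 5.44 in *mdx*, and 21.3 in DBA versus 6.54 in D2-*mdx*, against the Pax7-positive levels given above. The fall was beyond counting error in *mdx* and D2-*mdx* alone, and DBA did not fall. The fitted log2 fold change was -0.70 (SE 0.263, edgeR adjusted p = 0.0481), while the DESeq2 adjusted p was 0.162. The edgeR adjusted p was 0.381 without *mdx* and 0.312 without D2-*mdx*. Whether the state difference depends on strain was not tested. In dividing cells *Prkci* did not pass the test (log2 fold change -0.10, edgeR adjusted p = 0.774), with 59.7 CPM in B10 (7 UMIs) versus 9.22 in *mdx*, and 25.4 in DBA versus 9.29 in D2-*mdx*. Within dividing cells *Prkci* was lower in the dystrophic libraries than in their controls, with log2 ratios of -2.70 (-4.02 to -1.19) and -1.45 (-2.46 to -0.30). In Myog-positive cells these were -1.90 (-3.52 to 0.13) and -1.70 (-2.93 to -0.37), on 4 UMIs in B10 and 9 in DBA. These gates did not make the strains alike in state. The *Pax7* log2 ratios were -1.28 and -1.10 in dividing cells and -1.32 and -1.34 in Myog-positive cells. Those of *Myog* in Myog-positive cells were 1.16 and 1.20. The part of these differences in the *Prkci* ratios was not tested.

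*Pard3* fell in dividing cells of all 4 libraries. It was at 25.6 CPM in B10 (3 UMIs) versus 30.2 in *mdx* (59), and 30.5 in DBA (12) versus 25.8 in D2-*mdx* (125), against 45.0, 50.4, 46.2 and 44.9 CPM in Pax7-positive cells. Every dividing value was below every Pax7-positive value. The fall was beyond counting error in *mdx* and D2-*mdx* alone. The dividing intervals of B10 (5.28 to 74.8 CPM) and DBA (15.8 to 53.3 CPM) included their Pax7-positive levels. The log2 fold change was -0.75 (SE 0.175, edgeR adjusted p = 0.00267), DESeq2 gave an adjusted p of 0.00172, and leaving out each library gave edgeR values from 0.00269 to 0.0450. The call was lost when cells were thinned to 3000 UMIs (adjusted p = 0.0984). In Myog-positive cells *Pard3* did not pass the test (log2 fold change 0.18, edgeR adjusted p = 0.414). *Pard3* (ENSMUSG00000025812) lies on the plus strand of chromosome 8, from 127063893 to 127612286 in GRCm38.

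*Pard6g* rose in dividing cells, from a low level. It was at 17.1 CPM in B10 (2 UMIs) versus 5.64 in *mdx* (11), and 5.09 in DBA (2) versus 6.82 in D2-*mdx* (33), above its Pax7-positive level of 2.27 to 3.79 CPM in each library. The rise was beyond counting error in D2-*mdx* alone (interval 4.69 to 9.57 CPM). The dividing intervals of B10, *mdx* and DBA included their Pax7-positive levels. The log2 fold change was 1.19 (SE 0.416, edgeR adjusted p = 0.0316), and the DESeq2 adjusted p was 0.0394. Without *mdx* the edgeR adjusted p was 0.119 and without D2-*mdx* 0.353. In Myog-positive cells it did not pass (log2 fold change 1.05, edgeR adjusted p = 0.0611), with 0 UMIs in the 10 B10 cells, which allows up to 15.2 CPM, and 4.16, 11.8 and 6.91 CPM in *mdx*, DBA and D2-*mdx*.

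*Dlg1* missed the threshold in dividing cells, with a log2 fold change of -0.63 (SE 0.247, edgeR adjusted p = 0.0509), and passed it without DBA (adjusted p = 0.0297). Its dividing levels were 8.53 CPM in B10 (1 UMI) versus 9.73 in *mdx*, and 20.4 in DBA versus 18.2 in D2-*mdx*. The remaining tested genes, *Mark2*, *Mark3*, *Llgl1* and *Vangl2*, had fitted log2 fold changes from -0.40 (*Llgl1*, Myog-positive) to 0.24 (*Mark3*, Myog-positive), and none passed. *Prkcz* had 0 UMIs in the dividing and Myog-positive cells of B10 and DBA, and 4, 10, 5 and 4 UMIs in dividing *mdx*, dividing D2-*mdx*, Myog-positive *mdx* and Myog-positive D2-*mdx* cells.

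**Figure D3:**
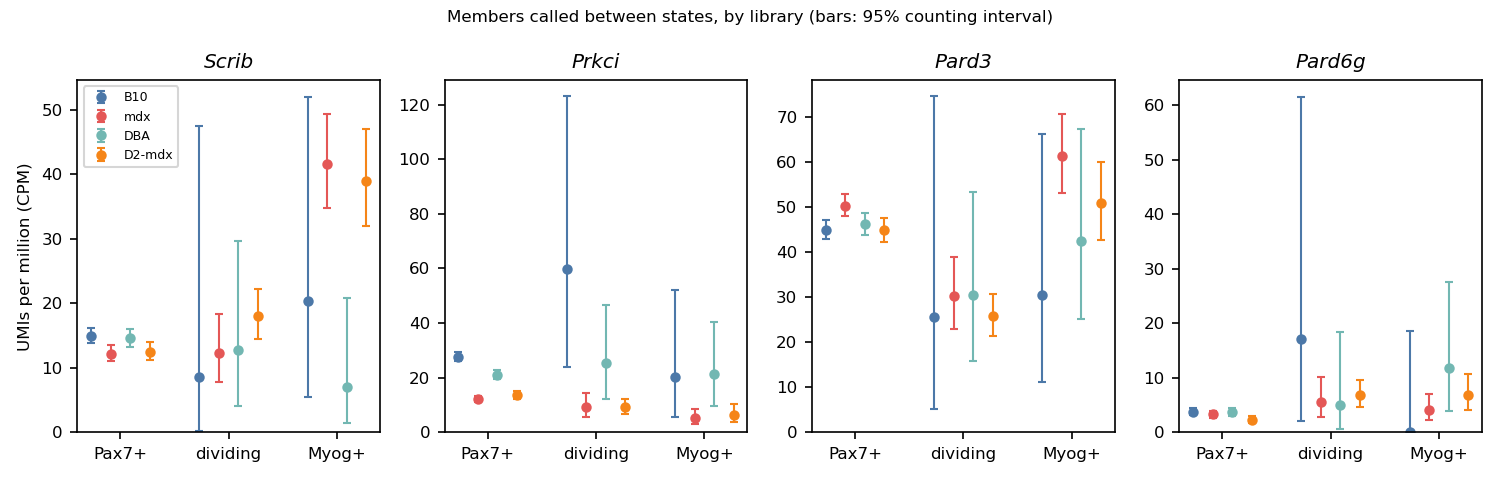
CPM (vertical axis, linear) of the 4 genes called between states, in Pax7-positive, dividing and Myog-positive cells of each library, with 95% Poisson intervals. *Scrib* is high in Myog-positive *mdx* (41.6) and D2-*mdx* (38.9) cells, and *Pard3* is lower in dividing than in Pax7-positive cells of each library. The wide bars of B10 and DBA come from 0 to 18 UMIs for these genes outside Pax7-positive cells.

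Related polarity genes were read from lists of the complexes, which partly contain the 10 genes and each other. Their counts between states stand beside the 16.0% of all genes that were higher and 17.7% lower in Myog-positive cells, and the 19.2% and 19.8% in dividing cells, and their counts in the disease comparisons beside the 10.4% lower and 7.74% higher in both. Of the Par complex list, 5 of 8 genes averaged at least 5 CPM and 2 were lower in both disease comparisons, *Prkci* and *Pard3b*. *Pard3b*, a paralog of *Pard3* that does not bind atypical PKC, was at 46.3 CPM in B10 versus 23.4 in *mdx*, and 56.5 in DBA versus 21.4 in D2-*mdx*. Its log2 ratios were -0.98 (-1.10 to -0.87) and -1.40 (-1.53 to -1.28). *Pard3b* also fell in dividing cells (log2 fold change -1.19, edgeR adjusted p = 0.000105) and in Myog-positive cells (-0.85, adjusted p = 0.00151), in 4 of 4 libraries each.

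Of the 8 Mark and LKB1 kinase genes, *Mark1* was lower in both dystrophic strains and none was higher. *Mark1* was at 7.20 CPM in B10 versus 2.08 in *mdx*, and 9.85 in DBA versus 3.10 in D2-*mdx*, with log2 ratios of -1.79 (-2.16 to -1.43) and -1.67 (upper bound -1.35). *Stk11*, which encodes the upstream kinase LKB1, rose in Myog-positive cells (log2 fold change 0.90, edgeR adjusted p = 0.000482), and *Mark1* fell (-2.04, adjusted p = 0.0108). None of the 8 was called in dividing cells. Of the 6 Scribble complex genes compared, *Dlg4* was lower in both, with log2 ratios of -0.87 (-1.17 to -0.58) and -1.09 (-1.40 to -0.78), and of 7 tested *Dlg3* fell in Myog-positive cells by edgeR (-0.97, adjusted p = 0.0385) but did not pass with DESeq2 (adjusted p = 0.0644). None of the 3 Crumbs complex genes compared passed 1.5-fold in either disease comparison. In the state tests of 4 Crumbs genes, *Lin7a*, an adaptor of the complex, fell in Myog-positive cells (-4.40, edgeR adjusted p = 4.04e-09) and in dividing cells (-2.09, adjusted p = 4.61e-07), *Mpp5* fell in both, and *Inadl* rose in Myog-positive cells, in 2 of 4 libraries.

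Of 10 planar polarity genes compared, *Celsr2*, a seven-pass cadherin, was lower in both dystrophic strains, at 2.65 CPM in *mdx* against 8.07 in B10 and 2.96 in D2-*mdx* against 15.0 in DBA. Of 13 tested in the states, *Scrib* rose and *Ptk7* and *Celsr2* fell in Myog-positive cells, and *Prickle2* and *Prickle3* fell in dividing cells by edgeR. None of these 5 calls passed with DESeq2, whose adjusted p was 0.0857 for *Ptk7*, 0.108 for *Celsr2*, 0.0682 for *Prickle2* and 0.0715 for *Prickle3*, beside that of *Scrib* given above. Of 8 spindle orientation genes, *Numb* and *Gnai1* were lower in both disease comparisons and *Gpsm2* higher. *Numb*, a Notch inhibitor that is partitioned unequally in asymmetric division, was at 56.2 CPM in B10 versus 24.8 in *mdx*, and 47.4 in DBA versus 26.1 in D2-*mdx*. *Gpsm2*, which links the spindle to the cortex, was at 3.69, 8.83, 3.65 and 8.21 CPM. Of 9 spindle orientation genes tested in the states, 3 rose and 3 fell in dividing cells, and 0 rose and 3 fell in Myog-positive cells. In dividing cells *Numb* fell (log2 fold change -1.84, edgeR adjusted p = 4.03e-06) while *Gpsm2* rose (2.28, adjusted p = 6.50e-06). *Aurka*, a mitotic kinase, was also higher there. These cells were gated on mitosis genes, and the part of the gate in both rises was not tested. In Pax7-positive cells the *Numb* log2 ratios were -1.06 and -0.63, and those of *Gpsm2* 1.24 and 0.65.

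Of the 8 compared genes linked to asymmetric division of satellite cells, the mutated *Dmd* and *Pax7* were lower in both disease comparisons and none was higher. Over all myogenic cells *Fzd7* averaged under 5 CPM and was not counted. Its log2 ratios were -0.89 (-1.21 to -0.58) in *mdx* over B10 and -0.74 (-1.07 to -0.41) in D2-*mdx* over DBA. Within Pax7-positive cells 9 genes of this list averaged at least 5 CPM. Of these, 3 were lower in *mdx* over B10 and 2 in D2-*mdx* over DBA, beside 12.9% and 13.8% of all genes, and 0 were higher. The *Fzd7* ratios in those cells were -0.72 and -0.71, both past 1.5-fold. Those of *Pax7* were -0.84 and -0.32, the last within 1.5-fold. The *Dmd* log2 ratios were -1.44 (-1.48 to -1.39) and -1.61 (-1.67 to -1.56). Of 12 tested in the states, 4 fell and 1 rose in Myog-positive cells, and 5 fell and 1 rose in dividing cells, *Pax7* by the gate itself. *Dmd* fell in dividing cells (log2 fold change -2.02, edgeR adjusted p = 1.81e-07) in 4 of 4 libraries.

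The cell polarity term that the study scored held 243 genes, of which 231 matched and 148 averaged at least 5 CPM. In *mdx* over B10, 23 of the 148 were lower (15.5%, beside 13.9% of all genes) and 18 higher (12.2%, beside 10.4%). In D2-*mdx* over DBA 31 were lower (20.9%, beside 17.6%) and 22 higher (14.9%, beside 12.5%), so the shares lay near those of all genes. In both comparisons 20 were lower (led by *Fez1*, *Fgf13*, *Igf1*, *Tek* and *Amot*) and 12 were higher (led by *Cenpa*, *Gja1*, *Pak1*, *Pdlim1* and *BC034090*). *Tek* is also among the 6 endothelial markers, so their sum includes it. The 6 summed to 49.9 CPM in B10 versus 20.8 in *mdx*, and 50.7 in DBA versus 21.6 in D2-*mdx* myogenic cells. *Cdh5*, also among the 6, went the other way, at 0.125 CPM in B10 versus 1.46 in *mdx*, and 0.0995 in DBA versus 1.21 in D2-*mdx*. *Cenpa*, a centromere histone, and *Pak1*, a CDC42 effector kinase, were at 2.81 and 15.3 CPM in B10 and at 21.4 and 67.1 CPM in *mdx*. The *Cenpa* log2 ratios were 2.93 in *mdx* over B10 and 2.89 in D2-*mdx* over DBA, but 1.29 and 1.28 within Pax7-positive cells. Those of *Pak1* were 2.13 and 2.14, and 2.13 and 2.03 within Pax7-positive cells. Of 177 genes of the term tested, 22 rose and 41 fell in Myog-positive cells, beside 16.0% and 17.7% of all genes. In dividing cells 42 rose and 36 fell, beside 19.2% and 19.8%. *Cenpa*, *Kif20b* and *Ndc80*, all genes of mitosis, led those that rose in dividing cells, a state gated on mitosis genes.

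**Figure D4:**
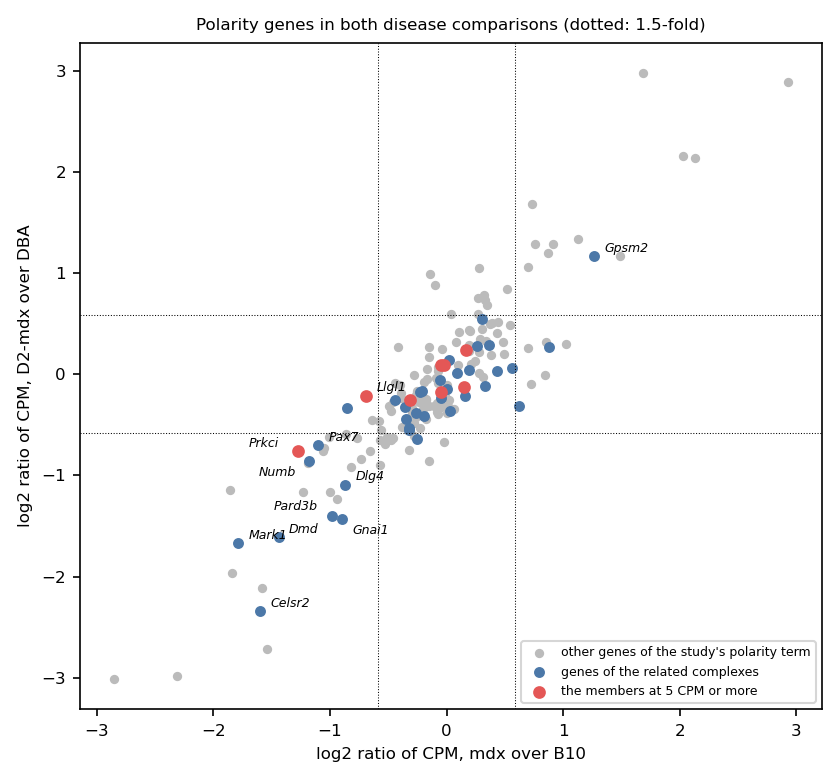
Log2 ratio of CPM in *mdx* over B10 (horizontal) and in D2-*mdx* over DBA (vertical) for polarity genes averaging at least 5 CPM, with 1 point per gene and dotted lines at 1.5-fold. Red points are the 8 members, blue points genes of the related complexes, and grey points other genes of the study's polarity term. *Prkci* is the one red point in the lower left corner, beside *Pard3b*, *Mark1*, *Dlg4*, *Celsr2*, *Numb*, *Gnai1*, *Dmd* and *Pax7* in blue, and *Gpsm2* is in the upper right.

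Some of the 10 genes had other levels in the other sorted cells of these libraries. *Pard6g* was at 25.3 to 32.0 CPM in the pericyte-like cells and 53.5 to 81.4 in the Schwann-like cells of the 4 libraries, against 3.44 to 3.85 in myogenic cells. *Dlg1* was at 79.7 to 190 CPM in vascular smooth muscle-like cells, on 9 to 76 UMIs, against 19.1 to 25.2 in myogenic cells. *Scrib* was at 40.6 to 63.3 CPM in Schwann-like cells on 4 to 24 UMIs. *Vangl2* had 0 UMIs in vascular smooth muscle-like cells of all 4 libraries, which in *mdx*, the library with the most such cells (56), allows up to 4.97 CPM.

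**Figure D5:**
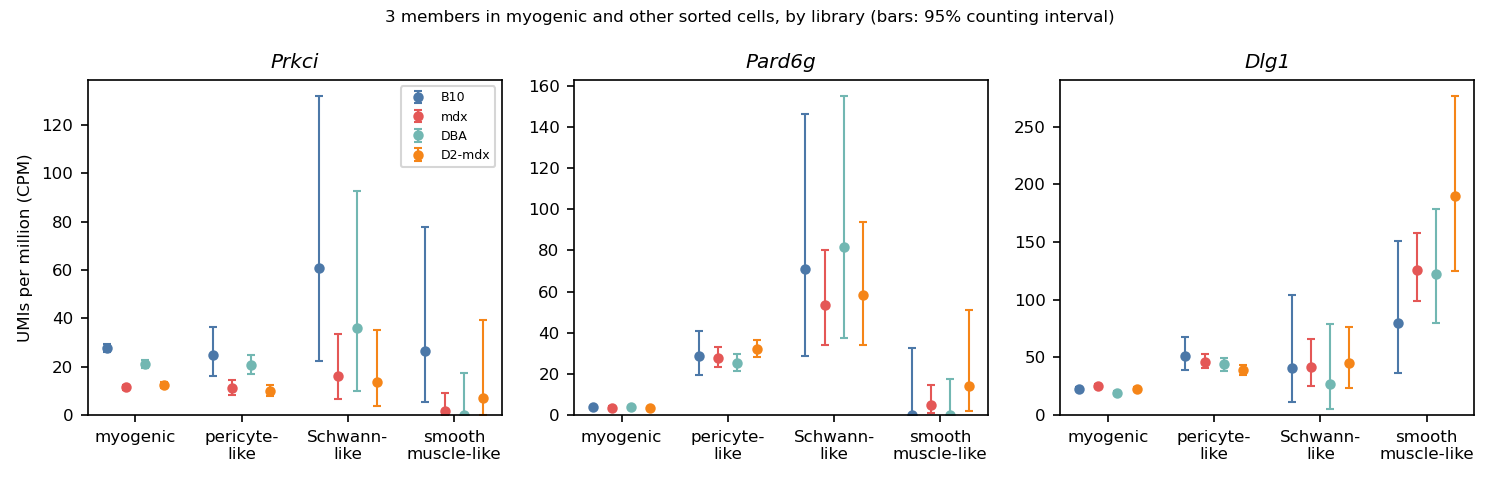
CPM (vertical axis, linear) of *Prkci*, *Pard6g* and *Dlg1* in myogenic, pericyte-like, Schwann-like and vascular smooth muscle-like cells of each library, with 95% Poisson intervals. *Prkci* is lower in the dystrophic libraries in pericyte-like as in myogenic cells, *Pard6g* is highest in Schwann-like cells (53.5 to 81.4) and *Dlg1* in smooth muscle-like cells (79.7 to 190).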

How the data were processed

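The deposited files hold raw UMI counts per gene and cell. Per the labels, reads were processed with Cell Ranger 3.0.1 on mm10 by the authors, who made 10X 3′ libraries. Cells were kept if 1000 to 5000 genes were detected and mitochondrial UMIs made up 8% or less, and the cells with the highest Scrublet doublet scores (a share of 0.008 for each 1000 cells) were removed, which left 3279 to 6313 cells per library with a median of 6675 to 10434 UMIs. Libraries were integrated and clustered with Seurat 5.3.0 (CCA, 2000 features, 30 dimensions, resolution 0.1). Clusters were named from marker lists. From the myogenic clusters 2 *mdx* and 4 D2-*mdx* cells with over 1% muscle fibre RNA (*Acta1*, *Tnnc2*, *Tnnt3*) were removed, a limit set after seeing the data.

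CPM are summed counts per 1000000, with exact Poisson intervals, and a count of 0 allows up to 3 counts. UMIs remove amplification copies, and the intervals cover counting error only. States were tested with edgeR 4.0.16 (TMM, filterByExpr), with DESeq2 1.42.0 as an alternative. The edgeR fit was run on simulated data with the same spread for every gene and the same state change in every library. That run cannot show how the fit handles state differences that vary between libraries. The members, lists and settings were chosen with earlier results of these data known. Named besides the members are list genes past 1.5-fold in both disease comparisons (at most 5 per direction) and at most 3 per direction called between states.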

Additional observations from a re-analysis of the deposited data

Results flagged for a closer look

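*Pard3* lay on opposite sides of its control on the 2 backgrounds over all myogenic cells, with a log2 ratio of 0.15 in *mdx* over B10 and -0.13 in D2-*mdx* over DBA, and both counting intervals excluded 0. The median log2 ratio of all genes compared was -0.05 in *mdx* over B10 and -0.09 in D2-*mdx* over DBA, so the second *Pard3* value lay near that median. Under other settings the *Pard3* ratio ranged from 0.08 to 0.21 and from -0.26 to -0.06, and no intervals were taken for these. With 1 library per strain the difference was not tested. In Pax7-positive cells the ratios were 0.16 (0.07 to 0.26) and -0.04 (-0.16 to 0.07), so the second interval included 0 there. All of these ratios are within 1.5-fold.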

How the results depend on the processing

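Each strain comparison was repeated with 12 other settings and each state comparison with 15. Over all myogenic cells the *Prkci* log2 ratio ranged from -1.45 to -1.21 in *mdx* over B10 and from -0.87 to -0.64 in D2-*mdx* over DBA under other scalings, cell filters, doublets kept, thinning and all sorted cells. TMM and DESeq2 factors shifted all ratios by less than 0.1. With at least 20 CPM, which removes *Prkci* and *Llgl1*, 0 genes were lower in either disease comparison, in all myogenic and in Pax7-positive cells. With a fold of 2, 1 was lower in *mdx* over B10 and 0 in D2-*mdx* over DBA in both sets of cells. With a lower fold limit, 2 were lower in DBA over B10 and 1 was higher in Pax7-positive D2-*mdx* over DBA cells (*Dlg1*). With all sorted cells 1 was higher in DBA over B10 (*Pard6g*). In Pax7-positive D2-*mdx* over DBA cells the count lower fell from 1 to 0 with TMM sizes, DESeq2 factors, per-cell means and at most 5% mitochondrial UMIs. It was also 0 in the cells with more immediate-early RNA, and rose to 2 with no minimum (*Pard6g*). The *Prkci* log2 ratio in this comparison ranged from -0.77 to -0.54 over the planned settings, and was -0.42 in the cells with more immediate-early RNA. In *mdx* over B10, 1 was lower in the cells with less immediate-early RNA and 3 in the cells with more (*Prkci*, *Llgl1* and *Vangl2*). The split by immediate-early RNA was chosen after seeing the data.

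Calls between states moved more. In Myog-positive cells the count higher was 0 with DESeq2 or thinned cells, and 0 to 2 when leaving out each library. It was 2 (*Pard6g* added) with at least 500 genes per cell and no upper limit on genes. The count lower was 0 with DESeq2, DESeq2 factors in edgeR, no block, a Myog gate of 1 UMI or a Pax7 gate of 2 UMIs. It was also 0 with at least 500 genes and no upper limit, and 0 to 1 when leaving out each library. Without the upper limit and with at least 500 genes, B10, *mdx*, DBA and D2-*mdx* held 14, 235, 40 and 643 dividing cells. The main filter left 6, 127, 21 and 296. In dividing cells the count higher was 0 with no block or thinned cells and 0 to 1 without a library. The count lower was 2 (*Dlg1* added) with no filter on low counts, either Myog gate, a dividing gate of 5 genes, a Pax7 gate of 2 UMIs or doublets kept, 0 with thinned cells, and 1 to 2 without a library. No called gene changed sign under these settings. Depth limits the B10 and DBA dividing and Myog-positive sums, at 117199 to 422159 UMIs.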

Other observations

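*Vangl2* had about the same level in all 4 libraries over Pax7-positive cells, but its ratios differed between cells with less and more immediate-early RNA, a split made after seeing the data. Below the median share the log2 ratio was 0.17 (-0.05 to 0.39) in *mdx* over B10 and 0.09 (-0.17 to 0.34) in D2-*mdx* over DBA. At or above it the ratio was -0.66 (upper bound -0.33) on 104 *mdx* and 293 B10 UMIs, past 1.5-fold, and 0.39 (0.05 to 0.74) on 159 D2-*mdx* and 127 DBA UMIs. With 1 library per strain this difference was not tested.

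In the 435 *mdx* and 322 D2-*mdx* myogenic cells that met none of the gates, *Prkci* was at 10.6 and 12.6 CPM, near its Pax7-positive levels of 12.2 and 13.7 CPM in the same libraries. In such cells of the controls it was at 9.56 CPM in B10 (2 UMIs) and 23.2 in DBA (6 UMIs). The log2 ratios there were 0.14 (-1.84 to 3.26) in *mdx* over B10 and -0.88 (-2.16 to 0.67) in D2-*mdx* over DBA.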
